A study of Mus musculus with 3 samples.

Results

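The Bcl2 family genes described here are Bcl2a1a, Bcl2a1b, Bcl2a1d, Mcl1, Bcl2, Bcl2l1, Bcl2l11, Bax, Bak1 and Bid, 10 of the 55536 genes in the deposited gene tables, chosen by symbol. They were measured in bone-marrow-derived macrophages of C57BL/6J mice, primary cells grown out from marrow. The cells had received Lipid A, the lipopolysaccharide part that TLR4 recognises, at 100 ng/ml for 12 h, and a washout of 12 h followed. They were harvested at minute 0 of the second Lipid A exposure. The RNA came from the chromatin fraction, which is rich in transcripts still being made or spliced, and ribosomal RNA was depleted before sequencing. All 3 libraries, biological replicates 1 to 3, belong to this 1 group and no untreated group was analysed here, so the values are levels in this state and not responses to Lipid A. The 3 libraries carry 1 donor identifier, and nothing in the labels says that the cultures came from separate animals. The spread between them may therefore be technical. Sex and age are not given in the labels.

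Proteins of the Bcl2 family decide whether the outer mitochondrial membrane is breached during apoptosis. MCL1, BCL-XL (from Bcl2l1), BCL2 and A1 (from the Bcl2a1 genes) hold the pore-forming effectors BAX and BAK1 in check, and BH3-only proteins such as BIM (from Bcl2l11) and BID antagonise the former or activate the latter. In macrophages, A1 and MCL1 are known as short-lived survival factors whose genes respond to inflammatory signals, and BIM is a mediator of death on growth factor loss.

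Expected counts totalled 11958978, 17283529 and 19475027 over the 3 libraries in replicate order, from 1000, 250 and 500 ng of starting RNA. The macrophage list (Adgre1, Csf1r, Itgam, Cd68, Fcgr1, Mertk, Lyz2 and Cd14) reached 1 TPM in every library for 8 of 8 genes, with summed levels from 778 to 1017 TPM. TPM is abundance per transcript length, scaled to 1 fixed total per library. Replicate 3 stood apart: the 7 fibroblast or stromal genes, led by Col1a1 and Sparc, summed to 525 TPM there, against 0.040 in replicate 1 and 1.47 in replicate 2. In the gene table, neutrophil genes summed to 0.44 to 1.61 TPM, B cell genes to 0.16 to 0.30 TPM, and T cell genes to 0.11 to 0.91 TPM. Erythroid genes summed to 19.25, 17.86 and 9.66 TPM, led by Alas2, dendritic genes to 1.48 to 1.70 TPM and mast cell genes to 0.28 to 1.45 TPM. In the read-based table, described below, the T cell gene Cd3d was at 11.7, 9.43 and 13.1 TPM. There Cd8a averaged 2.53 TPM, Cd3g 1.01, Lck 0.19 and Cd3e 0.13.

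The Bcl2a1 genes are 3 near-identical copies on chromosome 9, and the first 60 coding bases show how little separates them. They are printed 5′ to 3′ from the GENCODE M21 transcripts on mm10, and capitals mark the positions at which the 3 copies are not all the same. The stretches lie at chr9:88957051-88957110 on the plus strand for Bcl2a1a, chr9:89199360-89199419 on the plus strand for Bcl2a1b and chr9:88731660-88731719 on the minus strand for Bcl2a1d.
Bcl2a1a: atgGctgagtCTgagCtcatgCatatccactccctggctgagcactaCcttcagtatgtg
Bcl2a1b: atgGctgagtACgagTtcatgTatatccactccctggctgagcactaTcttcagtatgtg
Bcl2a1d: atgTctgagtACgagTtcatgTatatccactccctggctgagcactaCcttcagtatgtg
Of the 12 variable positions in the 516 coding bases (172 codons), 6 fall in this stretch.

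Across the coding sequence, Bcl2a1b and Bcl2a1d differed at 6 bases and 4 residues (98.8% identity). Bcl2a1a differed from Bcl2a1d at 7 bases and 6 residues (98.6%), and from Bcl2a1b at 11 bases and 8 residues (97.9%). Uninterrupted identical runs reached 314 bases between Bcl2a1a and Bcl2a1d. Of all 50-base windows of each transcript, 31% for Bcl2a1a, 20.8% for Bcl2a1b and 20.5% for Bcl2a1d occurred in no other annotated transcript. With windows of 100 bases these shares were 56.5%, 43.2% and 45.3%. Reads from the rest can be divided between copies only by the quantifier's model, so single-copy values are less certain than their sum.

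All 10 genes reached 1 TPM in every library, as did 46.1% of the 22028 annotated protein-coding genes. A mean of 10 TPM was reached by 7 of the 10, against 27.2% of protein-coding genes. The median over the 10 genes was 19.5 TPM, against 0.913 TPM over all protein-coding genes. Over the protein-coding genes that, like these 10, reached 1 TPM in every library, the median was 11.4, 13.7 and 14.0 TPM in replicates 1, 2 and 3. The levels ran from 4.26 TPM for Bcl2 to 249.6 TPM for Mcl1.

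Among the pro-survival genes, Mcl1 (chr3:95658788-95663176, plus strand) was the highest. It was measured at 255.3 TPM in replicate 1, 253.7 in replicate 2 and 239.9 in replicate 3, a mean of 249.6 ± 8.45 (SD, n = 3), from 9635, 11248 and 13110 expected counts. The libraries lay within 1.06-fold of each other in TPM and within 1.23-fold in TMM-normalized counts, and the mean exceeded that of 99.4% of protein-coding genes. Bcl2l1 (chr2:152780668-152831728, minus strand), which encodes BCL-XL, stood at 48.8, 46.9 and 61.5 TPM, a mean of 52.4 ± 7.94 (SD, n = 3). Replicate 3 was the highest and the other two were close together.

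Bcl2 (chr1:106538178-106714274, minus strand), which encodes the founding pro-survival protein of the family, had the lowest mean of the 10 genes in the gene table. It was measured at 3.76 TPM in replicate 1, 3.07 in replicate 2 and 5.94 in replicate 3, a mean of 4.26 ± 1.5 (SD, n = 3), from 176, 177 and 459 expected counts. Replicate 3, the highest for Bcl2, is also the library with 525 TPM of fibroblast or stromal genes. Their part in the Bcl2 level was not tested, and in bulk RNA more cells of a type cannot be told apart from more RNA per cell. Without replicate 3 the mean of Bcl2 was 3.42 TPM. From read-based values Bcl2 was at 8.25, 7.47 and 10.07 TPM in replicates 1, 2 and 3. Bcl2l1 exceeded Bcl2 12.9 ± 2.46-fold (SD, n = 3), with ratios of 13.0, 15.3 and 10.3 in the 3 libraries of the gene table, but 5.39 ± 0.765-fold from read-based values.

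The Bcl2a1 copies were of intermediate level. Bcl2a1b (chr9:89199209-89207827) was at 14.7, 15.1 and 20.9 TPM, a mean of 16.9 ± 3.48 (SD, n = 3), from 105, 116 and 204 expected counts. Bcl2a1d (chr9:88723285-88731914) was at 17.5, 8.80 and 14.2 TPM, a mean of 13.5 ± 4.41 (SD, n = 3), from 134.9, 73.6 and 149.97 expected counts. Bcl2a1a (chr9:88956900-88962419) was at 7.07, 7.6 and 5.33 TPM, a mean of 6.67 ± 1.19 (SD, n = 3), from 50.8, 58.8 and 52.2 expected counts. Bcl2a1a was the lowest copy in each library, while Bcl2a1d lay above Bcl2a1b in replicate 1 and below it in the others.

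The read-based table, in which reads were quantified from an index without the genome alignment, gave the copies the same order in each library. There Bcl2a1b was at 19.7, 14.4 and 19.4 TPM, Bcl2a1d at 21.9, 9.44 and 16.1, and Bcl2a1a at 10.8, 9.37 and 6.48. In replicate 2 of that table Bcl2a1a and Bcl2a1d were nearly level. Summed over the copies, the levels were 39.3, 31.5 and 40.5 TPM in the gene table (37.1 ± 4.89, SD, n = 3) and averaged 42.5 ± 9.62 TPM from read-based values (SD, n = 3). Bcl2a1b took 45.7% ± 7.40 of the summed gene-table TPM, Bcl2a1d 35.9% ± 8.34 and Bcl2a1a 18.4% ± 5.5 (SD, n = 3 each).

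**Figure D1:**
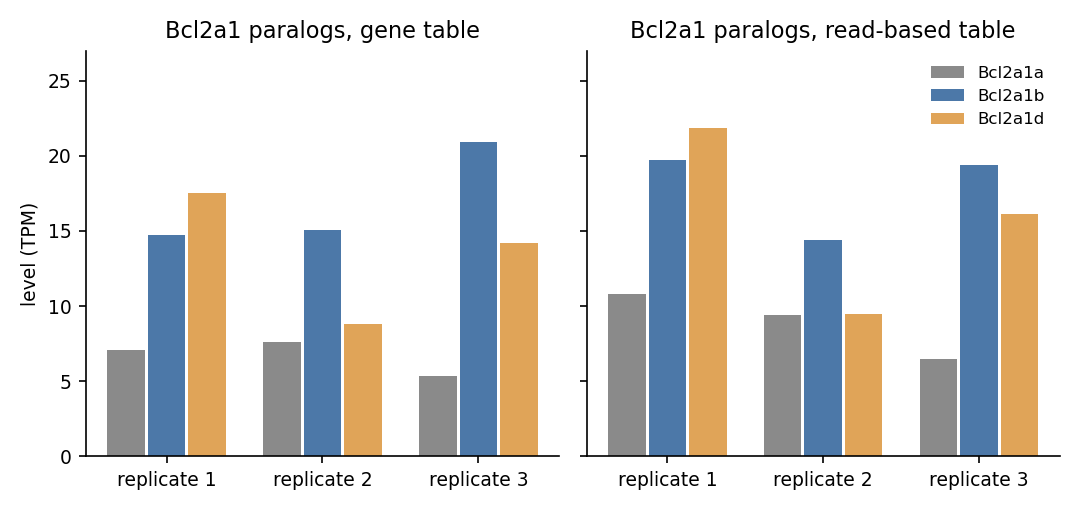
Level of each Bcl2a1 copy (TPM, bars, 1 bar per gene and library) in replicates 1 to 3, from the gene table on the left and the read-based table on the right. Bcl2a1a is the lowest bar in every library of both tables, and the Bcl2a1d bar drops to 8.80 TPM in replicate 2 of the gene table.

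The deposited gene table also holds an interval around a posterior estimate of each TPM, which covers how reads were assigned and not the spread between libraries. The level of the interval was not given in the sources used here. For Bcl2a1d it ran from 13.2 to 19.1 TPM in replicate 1, from 6.20 to 10.2 in replicate 2 and from 11.1 to 15.6 in replicate 3. The interval of replicate 2 lay apart from those of the other libraries, while the intervals of Bcl2a1a overlapped among all 3 libraries, and so did those of Bcl2a1b. Windows of the copies also occurred in transcripts of Bcl2a1c and of Gm29094, an annotated gene that overlaps Bcl2a1b on the same strand (chr9:89199379-89215471). Gm29094 was listed at 11.0, 6.15 and 7.75 TPM, so reads over the shared part can be divided between these annotations. Gm10634, annotated antisense to Bcl2a1d, was at 5.68 TPM on average, and whether counting used strand was not given in the sources used here.

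Of the effectors, Bax (chr7:45461697-45466898, minus strand) was at 39.2, 47.7 and 57.0 TPM, a mean of 48 ± 8.91 (SD, n = 3). Bak1 (chr17:27019810-27029009, minus strand) was at 5.77, 7.16 and 8.08 TPM, a mean of 7.0 ± 1.16 (SD, n = 3). In TPM both genes were lowest in replicate 1 and highest in replicate 3, and the Bax values all lay above the Bak1 values. The Bax to Bak1 ratio was 6.84 ± 0.198 (SD, n = 3), with 6.79, 6.67 and 7.05 in the 3 libraries of the gene table. From read-based values it was higher and more scattered, at 8.77 ± 1.12 (SD, n = 3), with 9.05, 7.53 and 9.73. Ggnbp1, on the opposite strand and overlapping Bak1, has 2 annotated entries, the higher of which was at 12.7 TPM.

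Of the BH3-only genes, Bcl2l11 (chr2:128126038-128162547, plus strand) was the second highest of all 10 genes. It was at 54.8, 77.6 and 50.1 TPM, a mean of 60.8 ± 14.7 (SD, n = 3), with replicate 2 the highest. Bid (chr6:120891930-120916853, minus strand), which links death receptor signalling to mitochondria once it is cleaved, was at 22.5, 21.7 and 22.1 TPM, a mean of 22.1 ± 0.395 (SD, n = 3). In gene-table TPM, Bid had the smallest relative spread of the 10 genes, with a coefficient of variation of 1.79%. Mcl1 followed at 3.38%, while Bcl2 had 35.2% and Bcl2a1d 32.6%. From read-based values Bid was at 42.1, 44.0 and 53.2 TPM and Mcl1 at 283.45, 262.4 and 279.0 TPM, so Bid was not the steadiest there. In TMM-normalized counts scaled by library size, Bid was at 19.9, 17.1 and 19.9 and Bak1 at 10.5, 10.7 and 11.3. Bid was thus not the steadiest gene on that scale. Bid shares its span with Bcl2l13 on the opposite strand (6.91 TPM) and with Gm44260, an unverified transcript on the same strand (18.0 TPM).

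**Figure D2:**
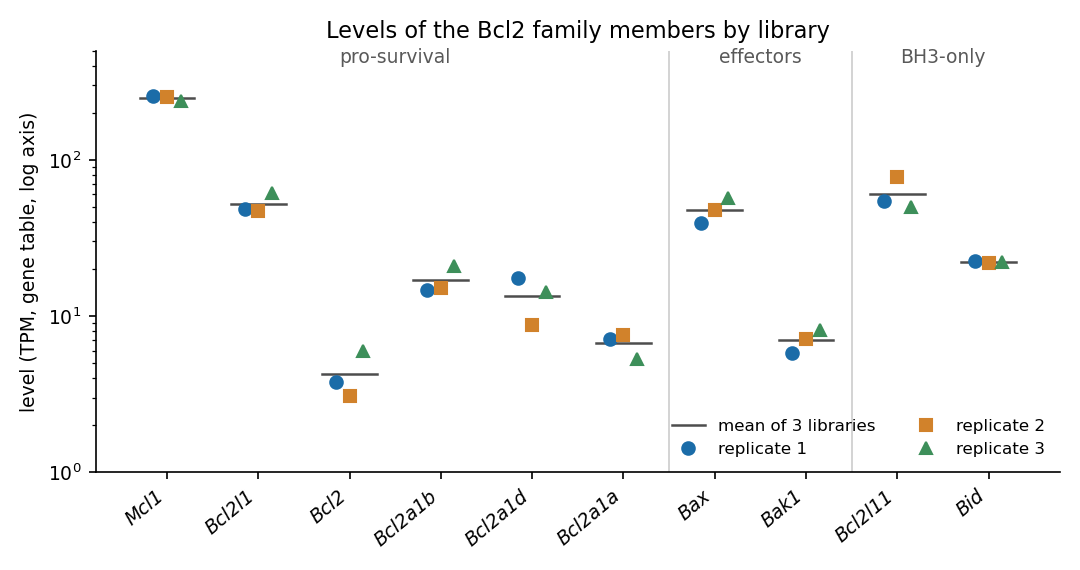
Level of each gene in the gene table (TPM, log axis), with 1 symbol per library, a bar at the mean of the 3 libraries and genes grouped by role. Mcl1 lies above every other gene in each library, and the symbols of Bcl2 and Bcl2a1d are the most scattered.

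In the order of mean TPM, Mcl1 came first, then Bcl2l11, Bcl2l1, Bax, Bid, Bcl2a1b, Bcl2a1d, Bak1, Bcl2a1a and Bcl2. Of the 9 pairs of neighbours, 4 had ranges that did not overlap: Mcl1 lay above Bcl2l11, Bax above Bid, Bid above Bcl2a1b and Bcl2a1d above Bak1. The separation was narrow for Bid, whose lowest value was 21.7 TPM against a highest Bcl2a1b value of 20.9. It was also narrow for Bcl2a1d, whose lowest value was 8.80 TPM against a highest Bak1 value of 8.08. Bcl2l11, Bcl2l1 and Bax could not be ordered beyond their spread, and neither could Bak1, Bcl2a1a and Bcl2.

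By role, the 6 pro-survival genes summed to 347.1, 335.1 and 347.8 TPM in replicates 1, 2 and 3. Mcl1 alone supplied 72.7% ± 3.43 of that sum (SD, n = 3). Bax and Bak1 summed to 44.95, 54.9 and 65.1 TPM (55.0 ± 10.1, SD, n = 3), and Bid and Bcl2l11 to 77.3, 99.3 and 72.2 TPM (82.9 ± 14.4, SD, n = 3). Without replicate 3 the means were 341.1 TPM for pro-survival genes, 49.9 for effectors and 88.3 for the BH3-only pair. The pro-survival sum was 7.72, 6.10 and 5.34 times the effector sum in the 3 libraries, a mean of 6.39 ± 1.22 (SD, n = 3). With Mcl1 left out of the pro-survival genes the ratio was 2.04, 1.48 and 1.66. From read-based values that ratio was 1.42, 0.965 and 1.12, so in replicate 2 the effectors then summed higher. These are ratios of RNA on chromatin and give no protein amounts.

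The spread between libraries was compared with the trend for a gene's abundance. Bcl2 had a quasi-dispersion 6.48 times the trend, Bcl2a1d 5.12 times and Bcl2l11 3.37 times. The edgeR quasi-dispersion test called 0 of 14839 genes (0%) at an adjusted p under 0.05, and 747 genes had an unadjusted p under 0.05. Of the 10 genes, 1 was among those 747: Bcl2, with an adjusted p = 0.963 by edgeR with Benjamini-Hochberg adjustment over all genes tested. Bcl2a1d had the next smallest p, with an adjusted p = 0.992 by edgeR. On read-based counts Bcl2a1d was the 1 gene of the 10 with an unadjusted p under 0.05, and Bcl2 was not. A test that called no gene at all says nothing particular about these 10. None of them was called with DESeq2 size factors, under other filters, on read-based counts or with any library left out.

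Pairs of libraries were then compared by the ratio of TMM-normalized read counts scaled by library size (CPM) with 0.1 added, with 1 library a side and so no test. Between replicates 1 and 2, 1 of the 10 genes was over 1.5-fold apart, against 15.8% of all genes tested: Bcl2a1d, at 11.3 against 4.54 CPM, a ratio of 2.45. Between replicates 1 and 3, 2 genes were, against 18.4% of all genes: Bcl2a1a, with a ratio of 1.61, and Bcl2, with a ratio of 0.641. Between replicates 2 and 3, 2 genes were, against 14% of all genes: Bcl2, with a ratio of 0.474, and Bcl2a1d, with a ratio of 0.609. With 10 genes, these shares are near the background. The other 7 genes stayed within 1.5-fold in all 3 pairs. On the TPM scale Bcl2l11 was 1.55-fold apart between replicates 2 and 3. On read-based counts Bcl2 stayed within 1.5-fold in all 3 pairs, while Bcl2a1a was also past it between replicates 2 and 3, with a ratio of 1.56.

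The read-based table gave higher levels than the gene table for 9 of the 10 genes on average, and Bcl2l1 was lower, at 46.5 TPM. The difference was large for Bid, at 46.4 ± 5.97 TPM (SD, n = 3) or 2.10 times the gene-table mean, for Bcl2, at 8.60 ± 1.33 TPM or 2.02 times, and for Bax, at 75.0 ± 9.02 TPM or 1.56 times. A ratio of at least 1.5 was seen for 2 of the 7 genes above 10 TPM, against 30.9% of protein-coding genes above that level, whose median ratio was 1.26. In this table Mcl1 remained the highest of the 10 genes, at 274.9 TPM, and Bax exceeded Bcl2l11, at 68.2 TPM. The pro-survival to effector ratio was 4.48 ± 0.493 (SD, n = 3).

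**Figure D3:**
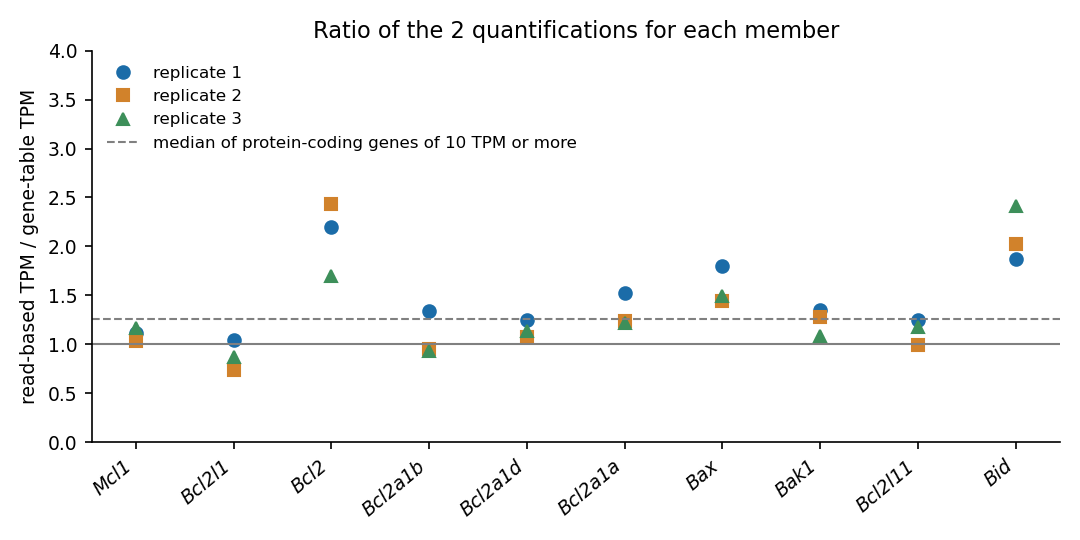
Ratio of read-based to gene-table TPM for each gene, 1 symbol per library, with a solid line at 1 and a dashed line at 1.26, the median of protein-coding genes of 10 TPM or more. Bid and Bcl2 lie above the dashed line in all 3 libraries, as does Bax, while Bcl2l1 lies below the solid line in replicates 2 and 3.

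Of the 10 genes, 7 have several annotated transcripts, and the 10 genes have 39 transcripts in all. The transcript tables divide each gene's TPM among them. TPM is per length, so shares of TPM give short transcripts more weight than shares of counts do. For 5 of these 7 genes (Bcl2, Bcl2l1, Bcl2l11, Bax and Bid), over 50% of the read-based TPM lay in transcripts holding at least 50 bases that the reference transcript splices out. The reference is the principal coding transcript of the annotation, and the limit of 50 bases was chosen after the values were seen. The same held for 76% of protein-coding genes above 10 TPM with several transcripts, so the count is near the background of chromatin RNA. The share was 0 for Mcl1 and Bak1, none of whose transcripts holds that many such bases.

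The junctions at which some of these transcripts part from the reference are printed 5′ to 3′ on the gene's strand from GENCODE M21 transcripts on mm10 to show where each form departs from it. Reads over these junctions were not counted separately. Capitals mark intron bases for Bcl2-202 (chr1:106712284-106712334, minus strand) and Bax-206 (chr7:45463369-45463428, minus strand). For Bak1-201 they mark an extra exon of 20 bases within chr17:27021328-27022458 on the minus strand, and for Mcl1-202 the bases after a splice that removes 138 bases of exon 1 (chr3:95658909-95659046, plus strand).
Bcl2-202: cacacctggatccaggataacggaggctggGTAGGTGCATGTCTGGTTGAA
Bax-206: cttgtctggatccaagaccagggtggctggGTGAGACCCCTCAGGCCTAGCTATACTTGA
Bak1-201: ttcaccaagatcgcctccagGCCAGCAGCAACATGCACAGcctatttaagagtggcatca
Mcl1-202: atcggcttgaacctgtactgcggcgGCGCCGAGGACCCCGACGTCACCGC
Both intron stretches begin with GT at the end of the exon.

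Mcl1 was the gene whose TPM lay mostly in the reference transcript. Mcl1-201, which codes for 331 residues, held 88.4%, 72.5% and 72.3% of the read-based TPM. Mcl1-202, with 285 codons, held the rest, at 11.6% in replicate 1 and 27.5% and 27.7% in the others. In the alignment-based transcript table Mcl1-201 held 100% in every library and Mcl1-202 was listed at 0, so the 2 tables do not give the shorter form alike. As a share of read-based counts Mcl1-202 held 5.60%.

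For Bcl2, Bcl2-202 is a single exon that runs from exon 1 into the large intron 1 and codes for 199 residues, against 236 for the reference Bcl2-201. It took 86.1% ± 4.57 of the read-based TPM and 63.4% ± 6.24 of the alignment-based TPM (SD, n = 3 each). By library the read-based share was 87.1%, 90.1% and 81.1%. The reference share was correspondingly 12.9%, 9.91% and 18.9%, highest in replicate 3. For Bcl2l1, Bcl2l1-205, which holds 1556 bases of an intron of the reference, held 56.2% ± 3.38 of the read-based and 66.6% ± 2.24 of the alignment-based TPM. Bcl2l1-201, with the 233 codons of BCL-XL, held 17.6% ± 2.00 and 22.2% ± 0.594. As shares of alignment-based counts, Bcl2-202 held 39.7% and Bcl2-201 60.3%.

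No transcript of Bcl2l11 averaged over 21.3% of its read-based TPM. Bcl2l11-202, with 91 codons and 1859 bases that the reference splices out, held 21.3% ± 0.849 of the read-based TPM, and the non-coding Bcl2l11-208 held 20.0% ± 1.84 (SD, n = 3 each). The alignment-based shares of these forms were 33.1% and 31.8%. Bcl2l11-205, with the 196 codons of the extra-long form of BIM, held 14.6% ± 1.54 read-based and 23.7% ± 2.20 alignment-based. Bcl2l11-204, with 110 codons as in the short form of BIM, held 15.5% ± 0.991 read-based but 0.44% alignment-based. The 391-base non-coding Bcl2l11-207 held 18.3% ± 1.80 and 6.63% ± 1.87. As shares of counts, Bcl2l11-205 led with 39.0% read-based and 47.9% alignment-based, and Bcl2l11-207 held 1.99% of read-based counts.

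For Bax, the retained-intron transcript Bax-206, whose junction is printed above, held 56.3%, 50.4% and 49.9% of the read-based TPM, a mean of 52.2% ± 3.55 (SD, n = 3). In the alignment-based table it held 15.6% ± 4.12. Bax-203, which holds 470 bases spliced out of the reference, held 22.8% ± 1.09 and 44.8% ± 1.57. Bax-201, with the 192 codons of the full-length effector, held 19.3% ± 3.36 and 35.0% ± 2.55. As shares of read-based counts, Bax-203 led with 38.8% and Bax-206 held 34.1%. The tables thus placed most Bax TPM outside Bax-201, in different transcripts.

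For Bak1, no transcript keeps a long intron stretch. Bak1-201, with the 20-base exon printed above and annotated for nonsense-mediated decay, held 46.1%, 47.4% and 49.0% of the read-based TPM and 38.9% ± 4.72 of the alignment-based TPM (SD, n = 3). The reference Bak1-202, with 209 codons, held 24.6% ± 4.18 and 23.2% ± 6.57. Bak1-203, with 146 codons, held 26.2% ± 1.45 and 8.22% ± 8.0. Bak1-204, also annotated for decay, held 1.65% ± 2.86 and 29.7% ± 12.2. From 125 to 226 expected counts per library lie behind these 4 transcripts, so their shares are imprecise.

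For Bid, the short non-coding Bid-202 held 48.2%, 46.6% and 47.8% of the read-based TPM and 41.9% ± 8.16 of the alignment-based TPM (SD, n = 3). Bid-201, with the 195 codons of full-length BID, held 17.3% ± 1.14 and 27.6% ± 3.13. The retained-intron Bid-205 held 18.8% ± 1.27 and 17.6% ± 3.77. Bid-203 held 16.1% ± 3.05 read-based but 0.78% alignment-based, and Bid-204 held 0.29% read-based but 12.1% ± 5.05 alignment-based. As shares of read-based counts the order turned, with Bid-201 at 57.9% and Bid-202 at 20.7%.

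**Figure D4:**
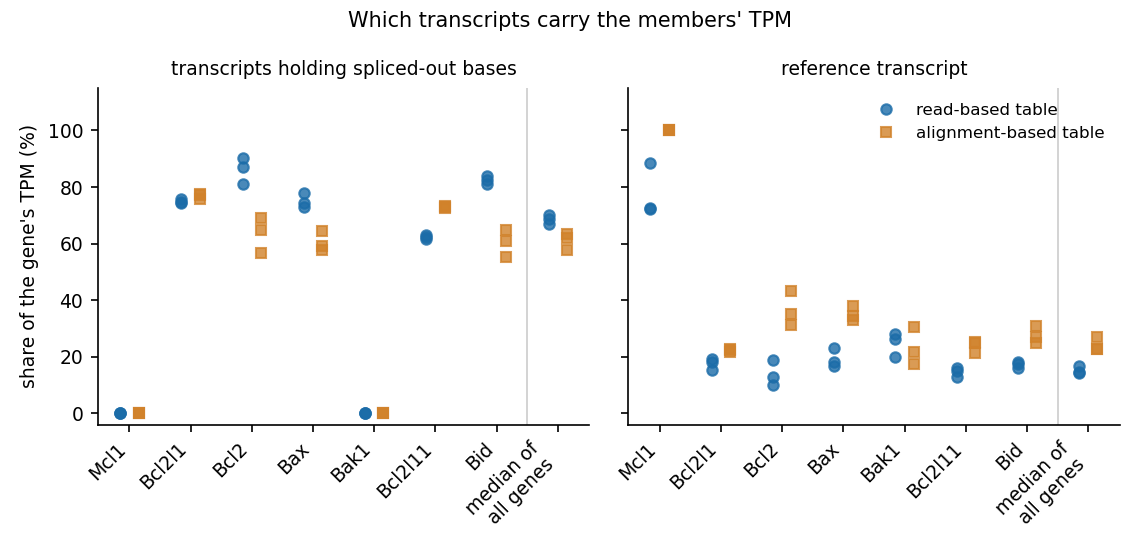
Share of each gene's TPM (%) in transcripts holding at least 50 bases spliced out of the reference transcript (left) and in the reference transcript itself (right), 1 symbol per library and transcript table, beside the median of all protein-coding genes of 10 TPM or more with several transcripts. Mcl1 stands at the top of the right panel and at 0 in the left one, while Bcl2, Bcl2l1, Bax, Bcl2l11 and Bid lie between 55.4% and 90.1% on the left.

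The median over all such protein-coding genes was 68.4% of TPM in intron-holding transcripts in the read-based table and 60.9% in the alignment-based table. In the read-based table Bcl2 (86.1% ± 4.57, SD, n = 3), Bid (82.4% ± 1.40), Bax and Bcl2l1 (both 75.0% on average) lay above the median of the same library in every library, and Bcl2l11 (62.3% ± 0.675) lay below it. In the alignment-based table Bcl2l11 lay above it in every library, at 73.0%, 73.3% and 72.5%. Bid, at 60.3% on average, was above it in replicate 1 (64.7% against 62.0%). Bid lay under it in replicate 2 (60.8% against 63.3%) and replicate 3 (55.4% against 57.6%). There Bax was also under it in replicate 2 (59.3% against 63.3%) and narrowly in replicate 3 (57.61% against 57.64%). Bcl2 was under it in replicate 3 (56.6%). The side of the median thus depended on the table for these genes, for Bid, Bax and Bcl2 in some libraries only. The reference transcript took 15.2% of read-based TPM at the median and 24.3% of alignment-based TPM. The corresponding Mcl1 share, 77.7% ± 9.27 read-based, exceeded the median in each library of both tables, as did that of Bax. The shares of Bak1 and Bcl2l1 exceeded it in each library of the read-based table, but in the alignment-based table Bcl2l1 lay under it in every library (22.7%, 21.5% and 22.3%) and Bak1 in replicates 1 and 3 (21.7% and 17.5%). By annotated type, transcripts not classed as protein-coding held 41.0% of Bcl2l11, 52.2% of Bax, 49.1% of Bak1, 66.7% of Bid and 6.24% of Bcl2l1 read-based TPM, against a median of 60.1% over all such genes. Bak1 turned to the other side in the alignment-based table, at 68.6% against a median of 53.6%. Bid did so as a share of read-based counts, at 33.1% against 37.8%.

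The other genes of the mitochondrial death pathway were described from 8 lists with 49 genes, of which 39 reached 1 TPM in every library and 29 averaged at least 10 TPM. Among all protein-coding genes these shares were 46.1% and 27.2%. Their median was 12.8 TPM, against 0.913 TPM over all protein-coding genes. Over the protein-coding genes at 1 TPM in every library the median was 11.4, 13.7 and 14.0 TPM in replicates 1, 2 and 3. The median of 12.8 TPM is over all 49 genes, including those that did not reach 1 TPM in every library, so these sets are unlike. Of the other pro-survival genes, Bcl2l2, which encodes BCL-W, was at 26.3, 36.4 and 35.8 TPM (32.8 ± 5.67, SD, n = 3), whereas Bcl2a1c (0.12 TPM) and Bcl2l10 (0.023 TPM) were under 1 TPM in every library. Bok, the remaining effector-like gene, was at 0.13 TPM. Of 6 other BH3-only genes, 4 reached 1 TPM in every library. Bad was at 10.3 ± 2.05 TPM, Bbc3 (PUMA) at 6.67 ± 1.75 TPM and Hrk at 0.027 TPM. In the read-based table Bbc3 was at 39.1, 40.1 and 47.8 TPM, a mean of 42.3, and thus above Bad at 9.50 TPM. Of 6 related genes, 4 reached that level, with Bnip3l at 10.01 TPM (24.6 read-based), Bcl2l13 at 6.91 TPM (14.2 read-based) and Bcl2l14 at 0.023 TPM.

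Downstream of the pore, 12 of 13 apoptosome, caspase and released-protein genes reached 1 TPM in every library, against 46.1% of all protein-coding genes. Apaf1, the scaffold of the apoptosome, was at 62.1 ± 5.72 TPM and the protease gene Htra2 at 53.8 ± 11.5 TPM, while Endog was at 0.733 TPM (SD, n = 3 each). Of 9 inhibitor of apoptosis genes, 7 reached that level, with Birc6 at 167 ± 3.18 TPM, Birc3 (cIAP2) at 133 ± 11.9 TPM and Naip1 at 0.297 TPM. The read-based means put Birc3 above Birc6, at 248.9 against 211 TPM, and Naip1 at 1.51 TPM. All 7 regulators of MCL1, BIM and BAK were at 10 TPM or more. They ran from Fbxw7 at 18.8 TPM to Vdac2 at 90.8 TPM and Huwe1, a ubiquitin ligase of MCL1, at 188 ± 5.99 TPM. All 4 genes of the p53 axis were at 10 TPM or more too. Mdm4 was at 242 ± 19.6 TPM, Mdm2 at 176 ± 21 TPM and Trp53 at 16.3 ± 3.85 TPM. Over all protein-coding genes, 27.2% averaged 10 TPM or more. In the gene table Mdm4 was the gene of the lists nearest to Mcl1 in level. In the read-based table Mdm4 exceeded Mcl1 in every library, at 377.6, 309.9 and 314.3 TPM against 283.45, 262.4 and 279.0 TPM.

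**Figure D5:**
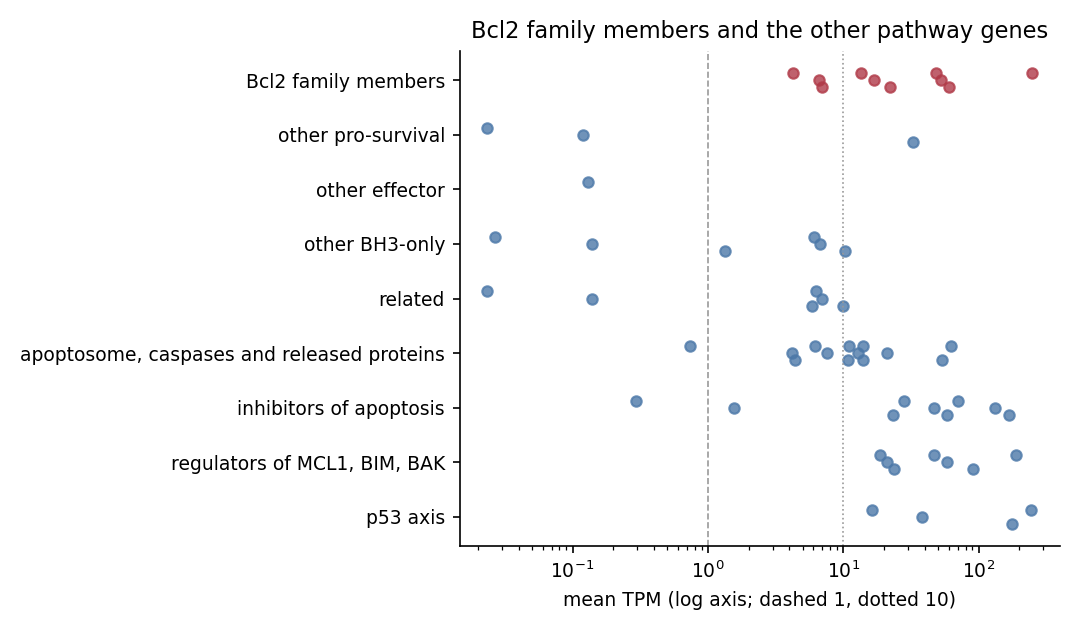
Mean TPM over 3 libraries (log axis) of the 10 Bcl2 family genes (top row) and of 49 other pathway genes by list, 1 point per gene, with lines at 1 and 10 TPM. The 10 genes span 4.26 to 249.6 TPM, and the lists of other pro-survival, effector-like, BH3-only and related genes each hold points at 0.14 TPM or less.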

How the data were processed

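Chromatin-fraction RNA was analysed in 3 libraries of 1 group. Per README files deposited beside the tables, the authors made the gene table and 1 transcript table from a transcriptome alignment on mm10 with GENCODE M21, and the read-based transcript table from an index. Aligner, tools, versions and use of strand were not given in the sources used here. The expected counts and estimated counts were deposited by the authors without normalization, and TPM was deposited scaled to a fixed total over all rows, including tRNA and spike rows. Rows that name no gene held 0.240% to 1.31% of expected counts and stayed out of tests. Intervals of posterior TPM were used as deposited.

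Levels are TPM, given as mean and SD. Expected counts were rounded to whole numbers and fitted with edgeR 4.0.16 in R 4.3.3 (filterByExpr, TMM, intercept-only design). The quasi-dispersion of each gene was compared with the trend, with Benjamini-Hochberg adjustment at 0.05. The step was tested on simulated data with the same dispersion for all genes. That does not show how well it finds variable genes in these libraries. DESeq2 1.42.0 size factors were an alternative, as were read-based values, TPM rescaled to nuclear coding and long non-coding genes, CPM per kilobase, other filters and each library left out. Python 3.11.15 with pandas 2.3.3 was used elsewhere. Counts of library pairs differed more than sampling allows (chi-square over degrees of freedom 39.1 to 72.0), so none was a duplicate. Named are the 10 genes, transcripts with a mean share of at least 10% in either table, and the 2 highest and the lowest gene of each list. The members and lists were chosen with earlier results of these data known. Precision of low genes is limited by their counts. No protein table was used here.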

Additional observations from a re-analysis of the deposited data

How the results depend on the processing

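With the read-based table in place of the gene table, the summed level moved beyond its SD from 343.3 to 372.6 TPM for pro-survival genes, from 37.1 to 42.5 for the Bcl2a1 copies, from 55.0 to 83.6 for effectors and from 82.9 to 114.6 for Bid and Bcl2l11. TPM rescaled to nuclear coding and long non-coding genes gave 802.8, 87.3, 127.5 and 191.8. This rescaling multiplies every gene of a library by the same factor. CPM per kilobase gave 310.5 for pro-survival genes. Leaving out each library gave 341.1 to 347.5, 35.4 to 39.9, 49.9 to 59.99 and 74.7 to 88.3. At 10 TPM on average, 7 genes passed in the gene table and 9 after rescaling. The share of all protein-coding genes past 10 TPM after rescaling was not computed, so the 9 has no background. Over-dispersed genes numbered 0 in the main test, 49 with no filter on low counts, 10 on read-based counts and 0 to 73 with 1 library left out (8 without replicate 1, 0 without replicate 2, 73 without replicate 3), and 0 with DESeq2 size factors. For replicates 1 and 3, the count of genes over 1.5-fold apart was 2, but 1 in TPM, 1 on read-based counts, 1 with 1 CPM added and 0 at a fold of 2, and 3 with DESeq2 size factors. For replicates 2 and 3 it was 2, but 1 at a fold of 2 and 3 in TPM. The median share in transcripts not annotated as protein-coding was 41.0% over the 7 genes with several transcripts, but 15.6% in the alignment-based table and 18.6% as shares of counts. As shares of read-based counts, 3 and not 5 genes had over 50% in transcripts holding spliced-out bases. The share of all genes over 50% was not computed on counts. The median over all such protein-coding genes fell too, from 68.4% of read-based TPM to 51.0% of read-based counts. Among protein-coding genes of at least 0.5 TPM, the background shares were 85.6% at 1 TPM in every library and 50.6% at 10 TPM on average. Apart from the rescaling, the cause of these shifts was not tested. No paired analysis was possible because all libraries belong to 1 group.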
